A study of Canis lupus familiaris with 6 samples.

Results

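MDCK cells that had spent 30 days in transforming growth factor beta (TGFb) and a further 30 days without it were compared with MDCK cells that had never received TGFb. MDCK (Madin-Darby canine kidney) is an epithelial cell line from dog kidney. The comparison was set by the sample labels and took in 3 of the 6 arrays of the series, the single withdrawal array and the 2 untreated arrays. The other arrays were 2 of cells kept in TGFb at 5 ng/ml for 30 days and 1 of such cells given 5-AZA for 72 hours. All cells grew in the same serum-containing medium, and TGFb-treated cells were subcultured every few days. The labels call both the untreated and the withdrawn cells epithelial. They do not say whether the untreated arrays came from separate cultures, whether the withdrawn cells were a clone, or whether the untreated cells were passaged for as long as the withdrawn ones. A p-value here therefore measures the spread within the untreated pair and within the TGFb pair, which may be technical. The single withdrawal array adds no spread of its own.

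TGFb can drive epithelial cells through an epithelial-mesenchymal transition (EMT), in which E-cadherin and tight junctions are lost while ZEB and SNAI transcription factors, matrix proteins and contractile proteins appear. The change can reverse when the ligand is removed. The comparison addresses how closely cells that had passed through TGFb resembled cells that had not.

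Each value is a signal on a log2 scale, so a difference of 1 is 2-fold. Values are written in the order untreated replicate 1, untreated replicate 2, withdrawal, and then TGFb replicates 1 and 2 where these are given. The table held 32293 probe sets, and 15947 genes were each represented by the brightest of their probe sets that carried a single gene symbol. The arrays' medians lay between 4.97 and 5.01. No level of detection is given for the arrays, so a low reading cannot be called absent, and their number limits the precision.

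Over 10 markers of MDCK epithelium the mean signal was 8.52 and 8.57 on the untreated arrays, 8.65 on the withdrawal array, and 5.62 and 6.17 on the TGFb arrays. Over 8 mesenchymal or fibroblast markers it was 4.61 and 4.28, then 4.49, against 7.81 and 7.76 under TGFb. Single markers went both ways: CLDN7 differed from untreated by 1.18, PAX8, a kidney transcription factor, by −0.65, DCN by 0.81 and THY1 by 0.55. Of the epithelial markers, CDH16, a kidney-specific cadherin, read only 4.58, 5.05 and 4.74. Markers of leukocytes (7 measured), endothelium (7) and neurons (6) averaged 3.85, 4.11 and 4.58 on the withdrawal array, beside 3.84 to 3.97, 3.90 to 4.04 and 4.18 to 4.25 on the untreated arrays.

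Of 17 genes chosen as anchors of the EMT and of growth, none lay as much as 1 log2 unit outside the untreated arrays. In 4 the withdrawal value fell between both untreated values, and in 12 it lay less than 0.5 beyond them. CDH1, which encodes E-cadherin, read 11.64, 11.43 and 11.34, against 6.25 and 7.24 under TGFb. The tight junction gene OCLN read 8.95, 8.71 and 8.83, and GRHL2, a transcription factor of epithelial genes, 8.73, 9.0 and 8.70. The collagen gene COL1A2 read 5.39, 5.21 and 5.12, with 9.31 and 9.21 under TGFb. For these 4 genes the withdrawal values lay near the untreated arrays and far from the TGFb arrays. Other anchors did not separate the conditions in this way, such as SNAI1, encoding the repressor Snail, at 4.97, 4.95 and 4.83 with 4.80 and 5.26 under TGFb. The anchor furthest outside the untreated arrays was FN1, encoding fibronectin, at 11.90, 11.05 and 10.29, a log2 difference of −1.19 ± 0.38 (SE of the fit, n = 2 and 1, limma adjusted p = 0.449), with TGFb arrays at 12.19 and 11.96.

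Among 13 measured EMT transcription factors none lay beyond both untreated arrays by 1, and the widest gap was ZEB2, a repressor of CDH1, at −0.38. Of 34 junction and polarity genes 32 lay within 0.5 of the untreated range. The other 2 were claudins, which form the strands of tight junctions. CLDN8 read 4.56, 4.98 and 3.41 (log2 difference −1.36 ± 0.25, adjusted p = 0.331) and CLDN7, chosen after its values were seen, 8.03, 8.48 and 9.44. CLDN8 was as low under TGFb (3.44 and 3.24), whereas CLDN7 was lower there (4.89 and 5.49) and stood above the untreated arrays after withdrawal.

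When withdrawn cells were tested against untreated cells, 0 of 32293 probe sets (0%) passed limma at a Benjamini-Hochberg adjusted p under 0.05, and the smallest adjusted p was 0.199. At an unadjusted p under 0.05 there were 1392 higher (4.31%) and 1762 lower (5.46%). With the model fitted again on only the 15947 named genes, 9 were called higher (0.0564%) and 49 lower (0.307%). That fit changed both the variance estimate shared across probe sets and the adjustment. The calls therefore depend on which probe sets are fitted and adjusted together. No gene below passed over all probe sets, and the differences are given as values of these 3 arrays.

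The size of the differences was therefore counted directly. The withdrawal array lay at least 1 log2 unit above both untreated arrays for 41 genes (0.257% of named genes) and at least 1 below both for 187 (1.17%). Differences below the untreated arrays were also wider, with 35 genes beyond by 2 or more and 11 by 3 or more, against 2 and none above. By comparison, the 2 untreated arrays differed from each other by 1 or more for 235 genes (1.47%) and the TGFb arrays for 121 (0.759%). The withdrawal array differed so from untreated replicate 1 for 564 genes (3.54%) and from untreated replicate 2 for 414 (2.60%). TGFb arrays and untreated arrays differed so for 884 to 1111 genes. Without untreated replicate 1 the counts were 113 above and 301 below, and without untreated replicate 2 they were 147 and 417. At the edge of the rule, UCP2 (1.01) and STAT3 (−1.002) were the last genes inside, and ZBTB8OS (0.99) and ERAP2 (−0.998) the first outside.

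**Figure D1:**
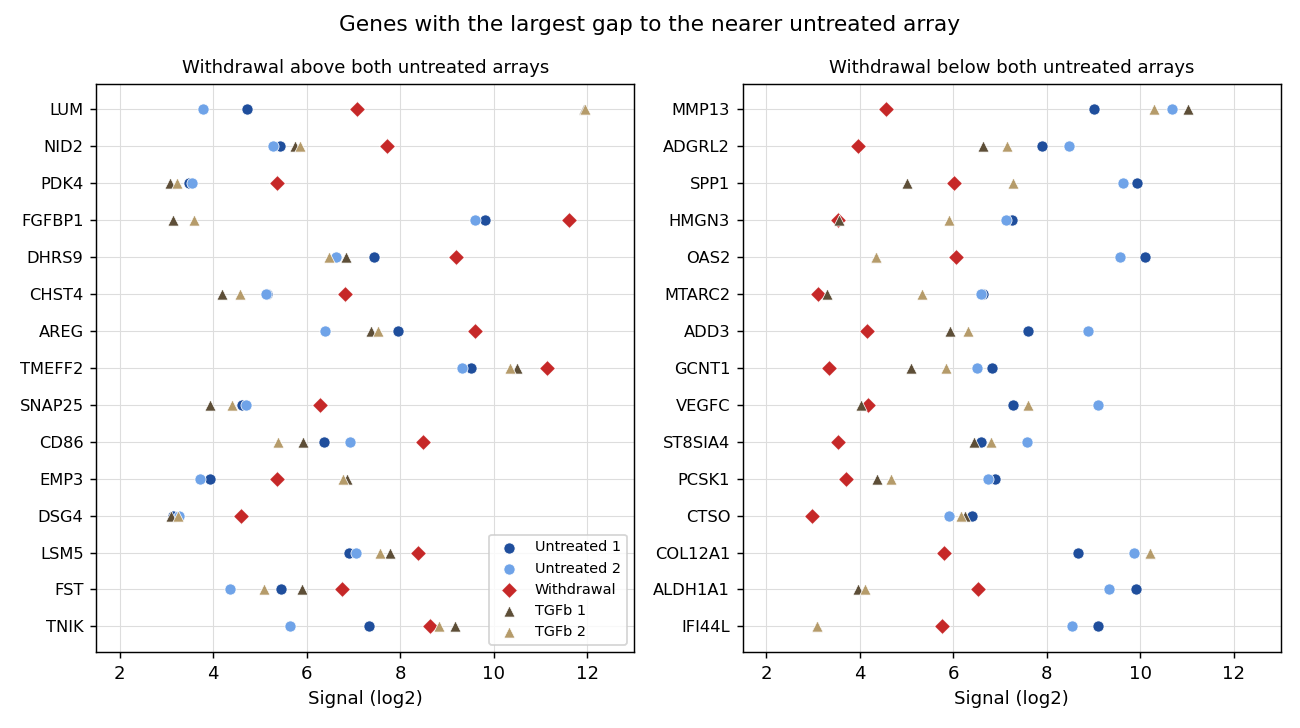
Signal (log2) of the 15 genes with the largest gap above (left) and below (right) the untreated arrays, ordered by gap, with 1 point for each array. The withdrawal point stands outside both untreated points in every row, from 1.31 (TNIK) to 2.36 (LUM) above the nearer one and from 2.79 (IFI44L) to 4.44 (MMP13) below it, and the TGFb points fall on either side or between.

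The gene furthest above the untreated arrays was LUM, which encodes lumican, a small leucine-rich proteoglycan that binds collagen fibrils. It read 4.73, 3.79 and 7.08, with 11.93 and 11.96 under TGFb, so the withdrawal array stood between the groups and apart from both. The log2 difference from untreated was 2.82 ± 0.40 (95% interval 1.81 to 3.83, adjusted p = 0.282). This interval and those given below are not adjusted for the choice of genes by their gap on these same arrays. They may overstate the differences and are no test of them. Of 11 small leucine-rich proteoglycans LUM alone lay above by 1, and none lay below by 1. By any amount 8 lay above both untreated arrays and 2 below both (ASPN and ECM2), beside 38.9% and 32.9% of all named genes. The corneal proteoglycan KERA read 3.37, 3.54 and 3.96, with 11.06 and 10.71 under TGFb, and DCN, encoding decorin, 2.96, 3.20 and 3.89, with 7.31 and 8.54. EPYC read 3.55, 3.40 and 4.05. These 3 were also above both untreated arrays, but by 0.42 to 0.70. FMOD, OGN, OMD and PRELP, whose means were not higher under TGFb, were above both by 0.05 to 0.20.

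NID2 came next. It encodes nidogen-2, which links laminin and collagen IV networks in basement membranes. It read 5.43, 5.27 and 7.72, then 5.75 and 5.86 under TGFb, and 6.69 on the 5-AZA array. The withdrawal array was thus the highest, and the 5-AZA array also lay above both untreated arrays. The difference was 2.37 ± 0.19 (95% interval 1.89 to 2.85, adjusted p = 0.199). Its paralog NID1 read 3.65, 3.42 and 3.86. Of 26 measured basement membrane genes NID2 was the single one above by 1, none lay below by 1, and the list's median difference was −0.06.

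FGFBP1, a carrier of fibroblast growth factors, read 9.82, 9.60 and 11.61, with 3.14 and 3.59 under TGFb (difference 1.90 ± 0.26, adjusted p = 0.279). RAB25, a trafficking GTPase of epithelial cells, read 7.53, 7.96 and 9.0, with 4.09 and 3.98. Both were low under TGFb and stood above the never-treated level after withdrawal. AREG, the EGF receptor ligand amphiregulin, read 7.95, 6.39 and 9.60, and the untreated arrays were themselves 1.56 apart. TMEFF2, a transmembrane protein with follistatin-like domains, read 9.52, 9.33 and 11.14, and its second probe set 8.81, 8.98 and 10.27. TMEFF2 read 10.50 and 10.35 under TGFb, between the other 2 conditions.

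Metabolic enzymes were also among the high genes. PDK4, a kinase that switches off pyruvate dehydrogenase, read 3.48, 3.55 and 5.36, and 3.08 and 3.23 under TGFb (1.85 ± 0.18, adjusted p = 0.206). DHRS9, which can oxidise retinol, read 7.44, 6.63 and 9.19, while the retinoic acid synthesising enzyme ALDH1A1 lay lower at 9.91, 9.34 and 6.54 (−3.08 ± 0.29, adjusted p = 0.199). These 2 genes were the only ones of 22 in retinoid metabolism beyond the untreated arrays by 1. CHST4, a sulfotransferase, read 5.14, 5.13 and 6.81. BNIP3, a mitophagy receptor, read 5.97, 6.10 and 7.29 and was the 1 gene of 27 in hypoxia and glycolysis above by 1.

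The remaining genes in the upper 15 were varied. EMP3, a small membrane protein, read 3.94, 3.71 and 5.36, with 6.86 and 6.78 under TGFb. TNIK, a kinase of the Wnt pathway, read 7.33, 5.64 and 8.64, with 9.17 and 8.83 under TGFb, and its untreated arrays were 1.69 apart. Like LUM, these lay on the TGFb side of the untreated arrays. SNAP25, a synaptic vesicle fusion protein, read 4.61, 4.71 and 6.28. The other measured neuronal markers went different ways. SYP (5.30, 5.07 and 5.48) and STMN2 (3.37, 3.11 and 3.67) were also above both untreated arrays. RBFOX3 (4.22, 4.26 and 4.08) was below both, and NEFL (3.17, 3.53 and 3.43) and GAP43 (4.85, 4.41 and 4.53) were inside their range. The part of neuronal cells in the SNAP25 value was not tested. CD86, a co-stimulatory molecule of antigen-presenting cells, read 6.38, 6.93 and 8.48. The measured leukocyte markers went different ways. CD14 (4.76, 4.96 and 5.04) and CSF1R (4.41, 4.17 and 4.43) were above both untreated arrays. CD3E (3.01, 2.74 and 2.50) and CD68 (5.19, 4.85 and 4.72) were below both. PTPRC (2.83, 2.95 and 2.83), ITGAM (3.83, 3.50 and 3.72) and CD79A (3.77, 3.72 and 3.73) were in or at their range. The part of leukocytes in the CD86 value was not tested. DSG4, a desmosomal cadherin, read 3.13, 3.27 and 4.60. FST, encoding the activin antagonist follistatin, read 5.44, 4.35 and 6.76, and LSM5, part of an RNA-binding ring, 6.90, 7.06 and 8.39.

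The largest gap of any named gene was that of MMP13, collagenase 3, which cuts fibrillar collagen. It read 9.01, 10.68 and 4.57, with 11.03 and 10.30 under TGFb, so the withdrawal array alone was low. The difference was −5.28 ± 0.72 (95% interval −7.12 to −3.43, adjusted p = 0.279), with a withdrawal reading under the array's median. Of 31 matrix proteases and inhibitors only MMP13 and the inhibitor TIMP3 (10.66, 10.96 and 9.20) lay below by 1, and none lay above. TIMP3 was lower still under TGFb, at 7.19 and 8.07. MMP14, a membrane-bound collagenase of the same family, read 5.71, 5.86 and 5.37, and MMP2 4.35, 4.39 and 4.40.

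ADGRL2 encodes latrophilin-2, an adhesion G protein-coupled receptor that binds FLRT and teneurin proteins. It read 7.90, 8.48 and 3.96, with 6.64 and 7.16 under TGFb (−4.23 ± 0.35, 95% interval −5.12 to −3.35, adjusted p = 0.199). Its relatives ADGRL1 (5.27, 4.65 and 5.01) and ADGRL3 (4.93, 5.20 and 4.93) lay in or at the untreated range. ADGRF1, of the same receptor class, read 7.59, 6.40 and 3.94, near its values under TGFb (3.43 and 3.47). These were 2 of 25 members of the list beyond by 1, both lower.

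Other matrix and growth factor genes lay below every untreated and TGFb array. COL12A1, a collagen on fibril surfaces, read 8.67, 9.86 and 5.80, with 10.20 on both TGFb arrays. LTBP1, which holds latent TGFb in the matrix, read 9.72, 9.41 and 6.98, with 10.35 and 10.38 (−2.59 ± 0.21 from untreated, adjusted p = 0.199). TGFB2, a TGFb ligand, read 8.59, 8.83 and 7.40, with 10.24 and 10.22. THBS1 (thrombospondin-1), CCN2 and the collagen receptor DDR2 lay 1.37, 1.10 and 1.11 below the lower untreated array, and each was higher under TGFb than in untreated cells. The same order held for the kidney cadherin CDH6 and the actin-binding CALD1, which lay 1.10 and 1.16 below. In all 8 genes the withdrawal array was the lowest of the 3 conditions and TGFb the highest.

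Of 31 TGFb signalling genes 7 lay above both untreated arrays and 16 below both by any amount, with a median difference of −0.24 against 0.02 over all named genes. It was −0.35 against untreated replicate 1 and −0.11 against replicate 2. Among all named genes 38.9% lay above both and 32.9% below both. BAMBI, a decoy receptor induced by TGFb, read 4.21, 3.96 and 3.51. Of 32 collagens and matrix glycoproteins 3 lay below by 1 and none above, and their median was −0.10, or −0.27 over the 17 brighter members. Over all named genes 1.17% lay below by 1.

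Some low genes had read differently on the 2 TGFb arrays. SPP1, encoding osteopontin, read 9.94, 9.63 and 6.02, then 5.02 and 7.27. HMGN3, a nucleosome-binding protein, read 7.26, 7.12 and 3.53, then 3.55 and 5.91, and MTARC2, a mitochondrial reductase, 6.63, 6.60 and 3.11, then 3.31 and 5.34. VEGFC, a growth factor for lymphatic vessels, read 7.28, 9.10 and 4.18, then 4.02 and 7.60 (−4.01 ± 1.55, adjusted p = 0.506). In each of the 4 the withdrawal array was nearer to TGFb replicate 1 than to TGFb replicate 2. Of 21 measured VEGF family and angiogenic factors, EDN1, encoding endothelin-1, was the only further gene below by 1 (7.83, 7.12 and 5.71). By any amount 12 of the 21 lay below both untreated arrays and 6 above both, beside 32.9% and 38.9% of all named genes.

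The other low genes of the lower 15 had no common role. ADD3, an adducin that caps actin under the cell membrane, read 7.59, 8.88 and 4.15, with 5.94 and 6.32 under TGFb. It was the only one of 19 membrane skeleton genes beyond by 1, and ADD1 and ADD2 were not. GCNT1 and ST8SIA4, which build branched O-glycans and polysialic acid, read 6.82, 6.51 and 3.35, and 6.59, 7.58 and 3.54. PCSK1, a prohormone convertase, read 6.89, 6.74 and 3.71. CTSO, a lysosomal cysteine protease, read 6.41, 5.90 and 2.98 with 6.25 and 6.16 under TGFb, and among these 5 arrays only the withdrawal array was low (−3.18 ± 0.26 from untreated, adjusted p = 0.199).

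Of the 24 gene lists, the interferon response had the median furthest from the untreated level. Type I interferons signal through JAK kinases and STAT proteins to switch on antiviral genes, and many cells keep a low tonic level of this program. Of 30 measured interferon response genes 12 (40.0%, against 1.17% of named genes) lay below both untreated arrays by 1 and none above. By any amount 22 lay below both, 5 above both and 3 between. The list's median difference was −0.96, with −1.24 against untreated replicate 1 and −0.69 against replicate 2.

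OAS2, which makes 2′-5′ oligoadenylates when it binds double-stranded RNA, read 10.11, 9.56 and 6.05, with 4.35 on both TGFb arrays (−3.78 ± 0.27, 95% interval −4.48 to −3.09, adjusted p = 0.199). IFI44L, an interferon-induced inhibitor of viral replication, read 9.09, 8.55 and 5.77, with 3.08 on both TGFb arrays (−3.06 ± 0.27, adjusted p = 0.199). USP18, which removes ISG15 from proteins and restrains the receptor, read 6.78, 6.55 and 4.05, with 2.85 and 3.11. RTP4, an interferon-induced chaperone of receptors, read 7.83, 7.71 and 5.14, with 3.53 and 4.01. All 4 stood between the untreated and the TGFb arrays and overlapped neither, as did all 12 genes that lay below by 1. Those 12 differed from untreated by −3.78 to −1.27.

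Members differed in how far they lay from the untreated arrays. Within the OAS family OAS1 read 9.21, 8.94 and 7.80 and OAS3 5.74, 6.05 and 4.78, both below the untreated arrays. OASL read 3.53, 3.08 and 3.20, inside the untreated range, but it was about as dim under TGFb (3.0 and 3.41). IFI44, neighbour of IFI44L, read 9.86, 9.32 and 7.53. DDX60 and PLSCR1, chosen after their values were seen, read 9.27, 7.35 and 7.82 with 3.08 and 3.07 under TGFb, and 7.45, 7.14 and 7.37 with 3.33 and 2.95. Both were low under TGFb and inside the untreated range after withdrawal. The untreated arrays were not level here: 26 of the 30 genes read higher on untreated replicate 1 than on replicate 2.

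**Figure D2:**
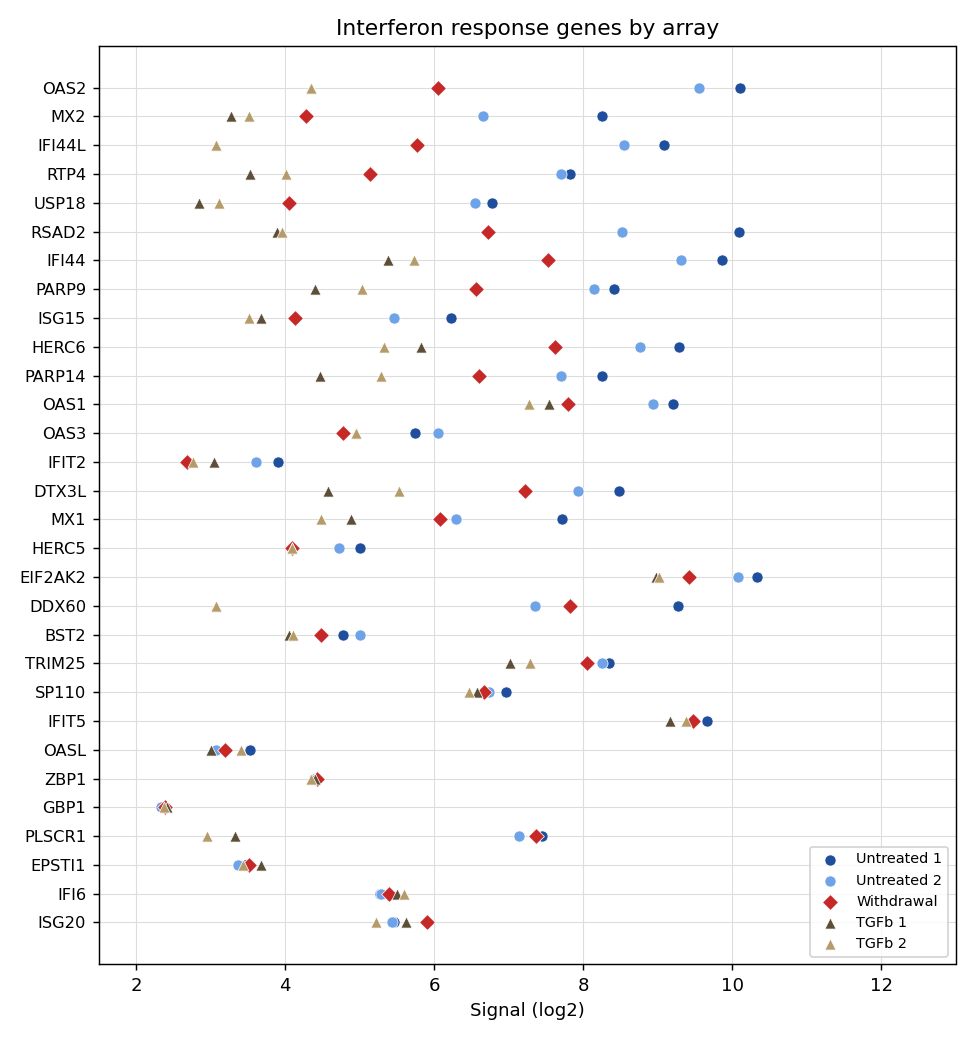
Signal (log2) of the 30 measured interferon response genes, ordered by the difference between withdrawal and untreated cells, with 1 point for each array. In the 12 genes below by 1 the withdrawal point sits between the untreated points on the right and the TGFb points on the left, and OASL, DDX60 and PLSCR1 show it within the untreated range.

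None of 25 sensors and regulators of the pathway lay beyond the untreated arrays by 1, and their median was −0.13. By any amount 14 lay below both untreated arrays and 4 above both. The 4 were TYK2 (5.10, 5.20 and 5.65), SOCS3 (4.26, 3.91 and 4.56), SOCS1 (4.46, 4.44 and 4.72) and DHX58 (4.05, 3.73 and 4.24). The RNA sensor DDX58 (RIG-I) read 8.55, 7.76 and 7.46 and IFIH1 (MDA5) 10.32, 9.64 and 9.52. STAT2 read 7.81, 7.07 and 7.06, and IRF9, its partner, 6.25, 6.14 and 5.77. The interferon gene IFNB1 itself read 2.31, 2.30 and 2.29. Those named here were chosen after their values were seen. Of 15 genes of antigen presentation 10 lay below both untreated arrays and 2 above, with a median of −0.39, but none by 1. Over all named genes 32.9% lay below both and 38.9% above both. The median was −0.50 against untreated replicate 1 and −0.22 against replicate 2. Among inflammatory mediators the interferon-inducible chemokine CXCL10 (6.61, 6.04 and 3.51) and the growth factor CSF2 (7.63, 7.13 and 4.73) lay below by 1, and both were about as low under TGFb.

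**Figure D3:**
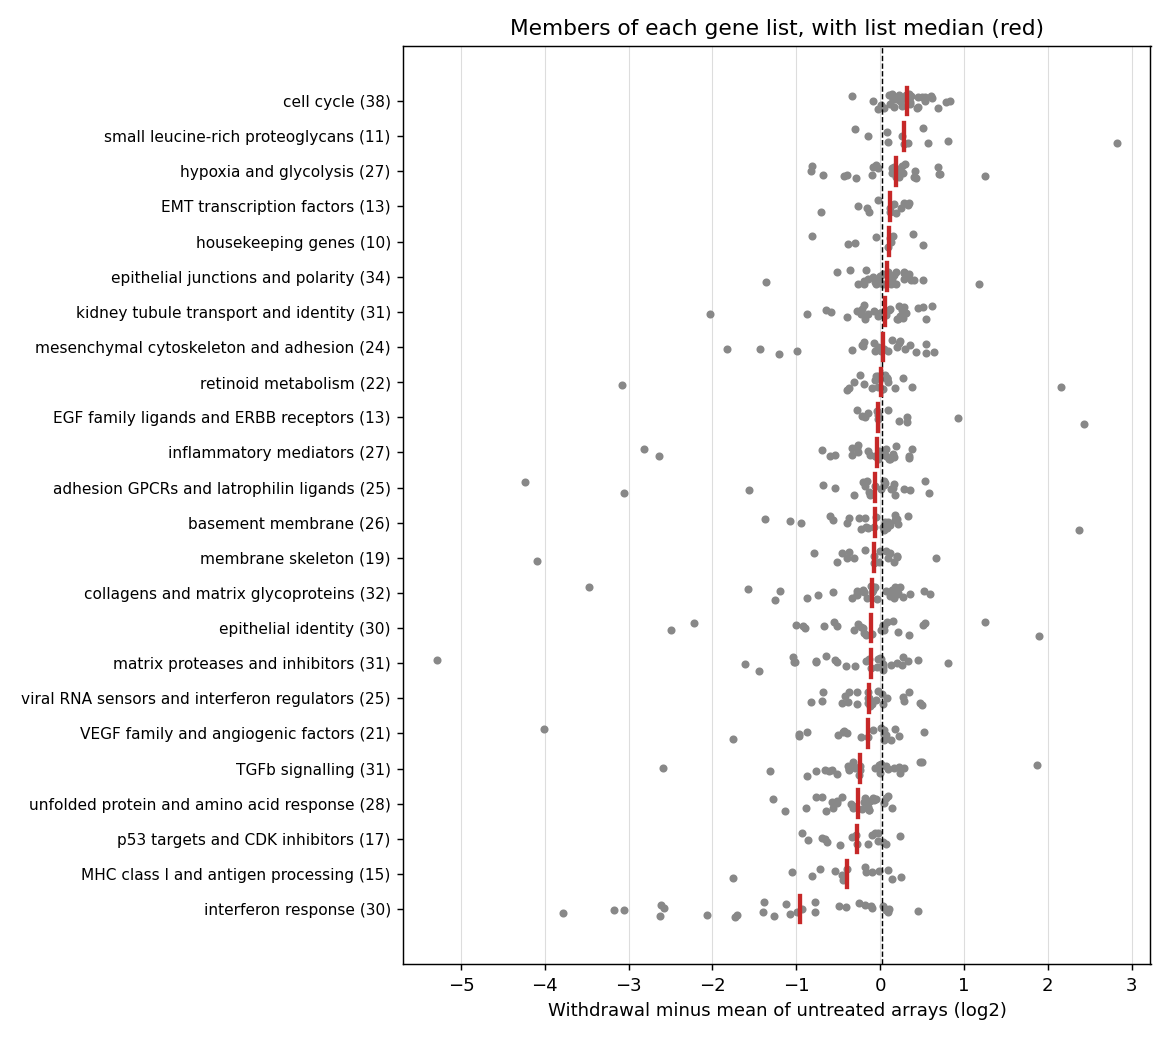
Withdrawal minus the mean of the untreated arrays (log2) for each measured member of 24 gene lists (grey points, number of members in brackets), with the list median in red and the median of all named genes as a dashed line at 0.02. Interferon response lies furthest left at −0.96 and cell cycle furthest right at 0.32, and the other medians lie between, over all measured members, dim ones included.

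Of 38 measured cell cycle genes 31 were above both untreated arrays and 1 below both, beside 38.9% and 32.9% of all named genes. None lay beyond by 1, and the median was 0.32 (range −0.33 to 0.83). The median of the TGFb arrays minus the same untreated arrays was 0.31, a value that shares its controls with the other. The mitotic kinase PLK1, chosen after its values were seen, was among the higher ones at 7.69, 7.73 and 8.54, and the proliferation marker MKI67 read 10.26, 10.27 and 10.40. The smallest adjusted p in this list was 0.352.

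Lists of stress response genes had medians below 0. Of 28 genes of the unfolded protein and amino acid response 21 lay below both untreated arrays and 3 above both, beside 32.9% and 38.9% of all named genes, with a median of −0.27. HERPUD1, of the degradation machinery of the endoplasmic reticulum, read 9.05, 8.54 and 7.51, and VLDLR, a lipoprotein receptor, 8.59, 8.39 and 7.36. These 2 were the only members below by 1. Among 17 p53 targets and CDK inhibitors 10 lay below both and 1 above both, against the same shares of all genes, and none by 1. Their median was −0.27, or −0.25 and −0.14 against untreated replicates 1 and 2.

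The medians of other lists were 0.09 for junctions, 0.12 for EMT factors, 0.03 for mesenchymal cytoskeleton, −0.10 for epithelial identity, −0.11 for matrix proteases, −0.02 for EGF ligands, −0.14 for VEGF factors, 0.06 for kidney tubule genes and 0.11 for 10 housekeeping genes. With the dimmer genes left out the medians were −0.59 for the 16 remaining matrix proteases, −0.87 for 9 VEGF factors, −0.54 for 5 adhesion receptors, −0.49 for 8 kidney tubule genes and −0.32 for 14 viral RNA sensors and regulators. The medians near 0 of these lists therefore depend on their dim members. Within epithelial identity, PROM1, encoding the apical membrane protein prominin-1, read 6.56, 5.39 and 3.48, and SPINK5, a serine protease inhibitor, 11.81, 11.97 and 9.67. The sodium pump subunit ATP1B1 read 9.12, 10.36 and 7.71 and was the only kidney tubule gene beyond by 1.

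Differences between withdrawn and untreated cells were unequal across chromosomes. RefSeq annotation of the dog assembly UU_Cfam_GSD_1.0 placed 15253 of the named genes on 39 chromosomes. Among the 7702 of them with a mean signal at or above the median of named genes, a restriction chosen after the data were seen, 4 chromosomes had a median difference of at least 0.2 in size and of like sign against each untreated array. Genes of chromosome 14 (137 genes) had medians of 0.33 and 0.44 against untreated replicates 1 and 2, and 74.5% of them lay above both untreated arrays, against 37.1% of all genes this bright. Genes of chromosomes 23 (−0.37 and −0.21), 33 (−0.26 and −0.33) and X (−0.30 and −0.25) had medians below 0, and 67.2%, 68.8% and 63.0% of them lay below both arrays, against 37.8%.

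Other pairs of arrays also had shifted chromosomes. Chromosome medians between the untreated arrays ran from −0.21 to 0.22, with 0.08 for chromosome 14, 0.02 for X, 0.14 for 23 and −0.11 for 33. Between the TGFb arrays they ran from −0.21 to 0.12, with −0.01 for chromosome 14, −0.05 for X, −0.01 for 23 and −0.13 for 33. The shift of chromosome 23 against untreated replicate 2 was thus no larger than the widest ones between replicates. Against the mean of the untreated arrays, the TGFb arrays gave 0.05 and 0.06 for chromosome 14 and 0.11 and 0.13 for X, with X of opposite sign to the withdrawal array, while chromosome 33 also read −0.23 on TGFb replicate 1. Over all chromosomes TGFb replicate 1 ran from −0.23 to 0.29 (chromosome 19), and the 5-AZA array from −0.40 (chromosome 35) to 0.14. Shifts of the size seen for chromosomes 23, 33 and X therefore also occurred on arrays other than withdrawal. For chromosome 14 (137 genes) the withdrawal array gave 0.37 against the untreated mean, smaller in size than the −0.40 of chromosome 35 (62 genes) on the 5-AZA array. The SD of the medians over chromosomes was 0.141 and 0.146 for withdrawal against untreated replicates 1 and 2. It was 0.11 between the untreated arrays and 0.072 between the TGFb arrays. Against the untreated mean it was 0.123 and 0.083 for the TGFb arrays and 0.109 for the 5-AZA array. With all named genes used, the withdrawal medians had the same signs and were smaller, at 0.17 for chromosome 14, −0.16 for 33, −0.12 for 23 and −0.07 for X.

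**Figure D4:**
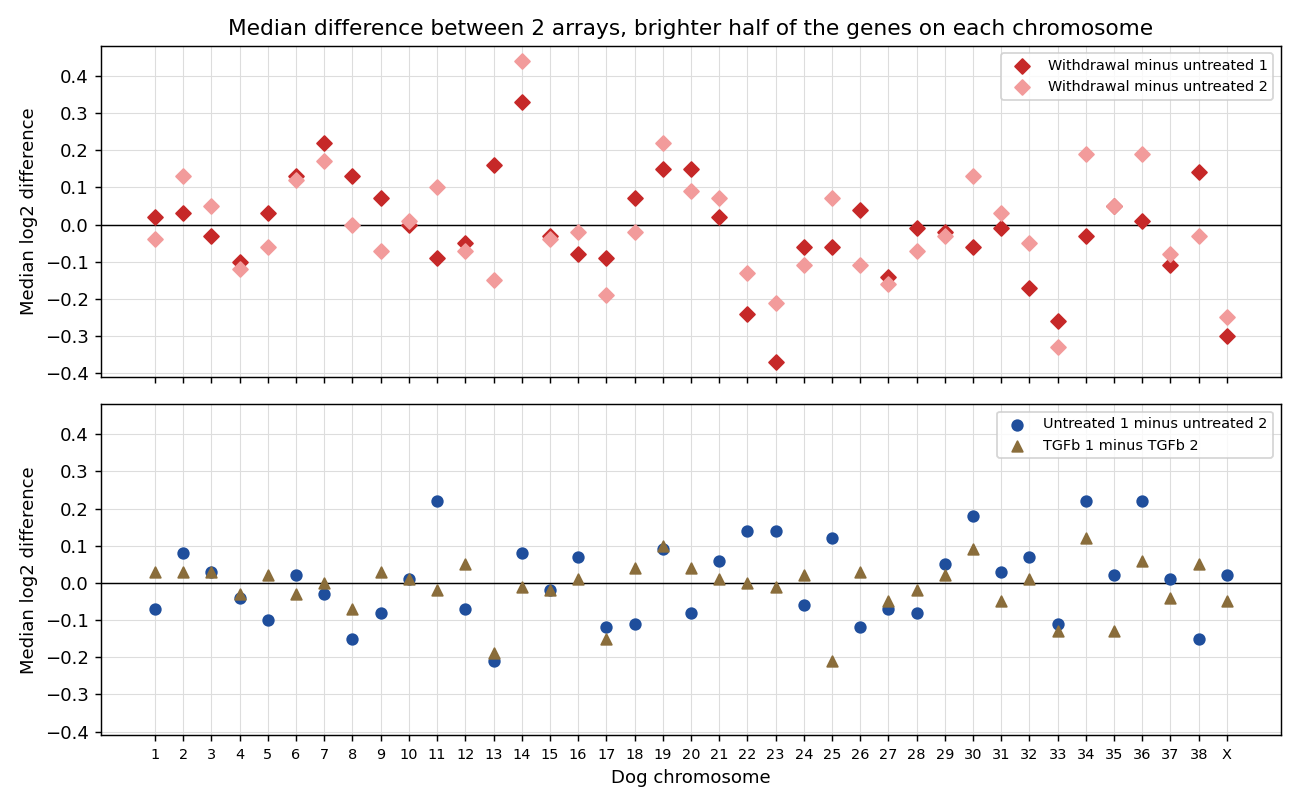
Median log2 difference over the brighter named genes on each dog chromosome, for the withdrawal array minus each untreated array (top) and for the arrays of 1 group against each other (bottom). Chromosome 14 stands at 0.33 and 0.44 in the upper panel and chromosomes 23, 33 and X lie between −0.37 and −0.21, while points of the lower panel run from −0.21 to 0.22 and so reach the smallest of these shifts.

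The genes beyond the untreated arrays by 1 come from the same arrays that singled out these chromosomes, so their places are a description. Of 41 higher genes 6 (14.6%) lay on chromosome 14, which holds 1.84% of the placed genes. These were PDK4, LSM5, IFRD1, LSM8, ELAPOR2 and GGCT. Of 180 placed lower genes 33 (18.3%) lay on chromosomes 23, 33 and X, which hold 5.91%. The interferon response genes PARP9 and PARP14 were among the 8 on chromosome 33, at −1.73 and −1.38 beside that chromosome's median of −0.29 in the brighter genes. The part of the chromosome medians in the values of single genes was not tested.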

How the data were processed

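Total RNA of 6 MDCK samples was measured on single-colour Affymetrix arrays with biotin label. The deposited values are log2 signals per probe set, made by the authors with Affymetrix Expression Console 1.2, per the submitters' processing notes. The sources used here do not give the summary method, background correction or log base, and values between 0.937 and 13.1 were read as log2. Names came from the platform annotation: 16545 probe sets had 1 symbol, 370 several and 15378 none. Of those with 1 symbol, 15820 were found in the RefSeq table, which gave current symbols and chromosomes. Near-identical family members may share a probe set.

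A group-means model of the 6 arrays was run in R 4.3.3 by limma 3.58.1 (lmFit, then eBayes without trend and not robust), with Benjamini-Hochberg adjustment over all probe sets at 0.05 and no signal filter. The fit had 2 residual and 3.10 prior degrees of freedom, and the lone withdrawal array was assumed to vary like the replicated groups. Errors after ± are standard errors of the fit. The intervals come from the same fit. They are printed for genes with large gaps on these arrays and are not adjusted for that choice. The fit was also run on simulated data with shifts added to the withdrawal array. That run checked the code only and bears on none of the values above. List medians, gaps and chromosome medians are descriptions of these arrays with no test.

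The comparison, the 24 lists (650 symbols, 577 measured) and the naming rule were chosen with earlier results of these data known. Named were the 15 largest gaps each way, the 5 genes LUM, NID2, OAS2, MMP13 and ADGRL2, the anchors, up to 4 members of a list beyond by 1, and relatives of the first. A gap is the distance from the withdrawal value to the nearer untreated array.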

Additional observations from a re-analysis of the deposited data

Results flagged for a closer look

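Probe sets without a single gene symbol enter no comparison above except the fit over all probe sets. Counting repeated values once, 14183 of them were measured, and the withdrawal array lay at least 1 log2 unit above both untreated arrays for 105 (0.74%) and below both for 202 (1.42%). The widest gaps were 3.13 above and −3.01 below. They are reported because they show signal beyond the untreated level in features that carry no gene name here.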

How the results depend on the processing

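No paired analysis was possible because the withdrawal array carries no replicate number. With the model fitted again on named genes only, limma called 58. Quantile scaling, median centring, dropping dim probe sets, an intensity trend, a robust fit, counting repeat probe sets once, leaving out any replicate, and fitting 3 arrays alone each gave 0. Without 1 untreated replicate, the counts beyond by 1 were 113 to 147 higher and 301 to 417 lower. With dimmer genes dropped, list medians moved to −0.32 for viral RNA sensors, 0.03 for epithelial identity, −0.27 for collagens, 0.03 for basement membrane, −0.59 for proteases, −0.54 for adhesion receptors, 0.10 for EGF ligands, −0.87 for VEGF factors, −0.26 for inflammatory mediators and −0.49 for kidney genes. Without either untreated replicate, medians ran from −0.22 to −0.07 for viral RNA sensors, −0.21 to −0.09 for epithelial identity, −0.13 to −0.10 for collagens, −0.09 to −0.04 for basement membrane, −0.29 to 0.00 for proteases, −0.07 to −0.02 for adhesion receptors, −0.03 to 0.03 for EGF ligands and −0.26 to −0.16 for VEGF factors. They ran from −0.09 to 0.01 for membrane skeleton, −0.05 to 0.02 for retinoid metabolism, 0.23 to 0.33 for cell cycle, −0.25 to −0.14 for p53 targets, −0.29 to −0.20 for the unfolded protein response, 0.08 to 0.17 for hypoxia, −0.14 to 0.09 for inflammatory mediators, −0.02 to 0.05 for kidney genes and −0.05 to 0.08 for housekeeping genes. In the brighter genes, chosen after the data were seen, chromosome medians were 0.37 for 14, −0.29 for 33, −0.26 for 23 and −0.26 for X. Without either untreated replicate the all-gene medians were 0.14 to 0.20, −0.20 to −0.14, −0.18 to −0.07 and −0.09 to −0.06. Beyond the effect of fewer genes or arrays, the causes were not tested. Of 752 differences computed for 69 named genes, 726 kept their side of the threshold and 26 passed it, all with named genes only, and 7 changed sign, in EPCAM, OCLN, ZEB1, SNAI2 and SPARC. With 1 withdrawal array and no detection limit, the spread among withdrawn cultures and the lower end of dim genes are unknown.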

Other observations

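A few single genes outside the lists, picked from the 187 lower and 41 higher genes after their values were seen, are given as values. FGFR1 and FGFR2, receptors for fibroblast growth factors, had gaps of −1.29 and −1.19. The Notch ligand JAG1 had a gap of −1.06 and the interleukin-1 receptor IL1R1 one of −1.30. The interferon-inducible ubiquitin ligase RNF213 had a gap of −1.46. Among the higher genes the desmosomal cadherins DSG4 and DSG1, which follow each other in gene order, had gaps of 1.34 and 1.14.

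Some of the 187 lower genes also differed between the 2 TGFb arrays, a comparison that uses neither the withdrawal nor the untreated arrays. TGFb replicate 2 read at least 1 log2 unit above replicate 1 for 15 of them (8.02%) and the reverse held for 0. Over all named genes the shares were 0.439% and 0.32%. Those are not a matched background, because the 187 were picked for differing between arrays. All named genes were also dimmer, with a median of 5.45 in untreated cells against 6.96 for the 187. The 2 untreated arrays also differed by 1 or more for 33 of the 187, against 235 of all 15947 named genes. Medians over the 187 genes were 6.96 in untreated cells, 5.08 after withdrawal, 6.14 and 6.32 under TGFb and 6.95 with 5-AZA.

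Among genes placed by the RefSeq table, 8 pairs of lower genes and 1 pair of higher genes were next to each other in the order of measured genes. The longest run was ADGRL2, IFI44 and IFI44L. Of the 15253 placed genes 180 were lower and 41 higher, and the number of pairs to expect from these was not computed. Some pairs were of the same gene family, such as IFI44 and IFI44L, PARP15 and PARP14, and DSG4 and DSG1.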
